A study of Mus musculus with 12 samples.

Results

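The 10 genes of iron transport, storage and hormonal control described here were followed across all libraries of a knockdown experiment in mouse primary hepatocytes. They are Trf, Cp, Fth1, Ftl1, Slc40a1, Tfrc, Tfr2, Hfe, Hamp and Hamp2, which are 10 of the 55385 gene identifiers measured. These genes were chosen by name for their known roles, with earlier results of these data known. Hepatocytes of 3 mice were each split into 4 cultures, which gave 12 RNA-seq libraries, 1 per mouse and group. The groups are the double knockdown (siRNAs against Hnf4a and Cebpa together), siHnf4a alone, siCebpa alone and siCon, a control siRNA, with 3 libraries each. RNA was taken 48 h after the siRNAs were given. All cultures, siCon included, were kept in Williams' E medium that held 10% serum, 2 mM glutamine, 100 nM dexamethasone and 5% of an insulin, transferrin and selenium supplement, so transferrin protein was supplied to every group. No source used here gives the strain, age or sex of the mice, or the siRNA sequences.

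The liver makes most of the transferrin in plasma, stores iron in ferritin and senses the body's iron load. Hepatocytes answer a rise in iron or an inflammatory signal with hepcidin, a peptide hormone that makes cells take the iron exporter ferroportin off their surface and so keeps iron out of the blood. Inside cells, iron regulatory proteins bind stem-loops called iron responsive elements when iron is scarce: bound near the start of a transcript they block its translation, and bound after the coding part they protect it from decay. The targets of the siRNAs are transcription factors that keep hepatocytes differentiated: HNF4A, a nuclear receptor, and C/EBP alpha, which binds DNA through a leucine zipper.

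The stem-loops are shown because they divide the genes between control of translation and control of transcript stability. GENCODE M21 transcripts (GRCm38) were searched for an unpaired C, 5 paired bases, the loop CAGTGN and 5 paired bases. Of the 10 genes, 4 held such an element in an untranslated region, on the coding strand of each gene. The loop is in capitals in each 27-base element.
Fth1, 5′ UTR, chr19:9982733-9982759, plus strand: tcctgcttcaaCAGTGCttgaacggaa
Ftl1, 5′ UTR, chr7:45459780-45459806, minus strand: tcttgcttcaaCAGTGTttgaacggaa
Slc40a1, 5′ UTR, chr1:45925466-45925492, minus strand: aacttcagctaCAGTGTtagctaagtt
Tfrc, 3′ UTR, chr16:32631220-32631246, plus strand: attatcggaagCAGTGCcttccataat
Tfrc, 3′ UTR, chr16:32631599-32631625, plus strand: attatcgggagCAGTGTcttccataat
Tfrc, 3′ UTR, chr16:32631664-32631690, plus strand: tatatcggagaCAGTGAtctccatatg
Tfrc, 3′ UTR, chr16:32631711-32631737, plus strand: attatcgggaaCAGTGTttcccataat
Among 21901 protein-coding genes, 0.142% held a match in the 5′ UTR and 0.584% in the 3′ UTR. Both ferritin genes and Slc40a1 carried 1 element near the start of the transcript, and Tfrc carried 4 after its coding part.

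Hepcidin has 2 gene copies in the mouse, Hamp (chr7:30942368-30944032) and Hamp2 (chr7:30922372-30924681), both on the minus strand, with spans from GENCODE M21. The bases upstream of a RefSeq start of each are shown to compare the copies, and their part in the level of either copy was not tested. RefSeq promoters (GRCm38.p6) covering 250 bases before to 50 after the start matched 8 of the 10 genes, all but Trf and Slc40a1. Both strands were searched for CAAAGTCCA (HNF4), TTGCNNAA (C/EBP), GGCGCC (the core of a BMP response element) and TTCNNNGAA (STAT). Matches are in capitals in the 150 bases before each RefSeq start. These starts differ from the ends of the GENCODE spans. The Hamp2 stretch lies inside its span, whose upstream end is 30924681, and the Hamp stretch overlaps the last bases of its span. Bases upstream of the GENCODE end of Hamp2 were not searched.
Hamp, chr7:30944030-30944179, minus strand: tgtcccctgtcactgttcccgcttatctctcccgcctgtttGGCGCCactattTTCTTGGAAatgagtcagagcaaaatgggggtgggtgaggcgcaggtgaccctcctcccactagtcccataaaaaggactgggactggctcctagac
Hamp2, chr7:30924182-30924331, minus strand: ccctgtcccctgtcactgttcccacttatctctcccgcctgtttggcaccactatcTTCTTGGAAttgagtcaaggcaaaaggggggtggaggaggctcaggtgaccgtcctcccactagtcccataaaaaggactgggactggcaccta
The Hamp promoter held GGCGCC at -109 and TTCTTGGAA at -97 from the RefSeq start, whereas the Hamp2 window at its RefSeq start held TTCTTGGAA at -94 without the BMP core. The first Tfrc promoter held GGCGCC at -89, and C/EBP matches stood at -70 in the second Cp promoter and at -129 and -58 in the second Fth1 promoter. None of the 13 promoters of these genes held the HNF4 word in that window. Of 32851 RefSeq promoters, 11.9% held GGCGCC, 8.3% TTCNNNGAA, 10.8% TTGCNNAA and 0.475% CAAAGTCCA, and these matches are descriptions of letters, not measured binding.

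Libraries held 22453445 to 25008195 estimated counts, and 9 of the 10 genes passed the filter on low counts, all but Hamp2. The siRNA targets went down with their labels. Hnf4a stood at 12.2 ± 1.22 TPM (transcript abundance scaled for length and library size) in the double knockdown and 18.8 ± 2.14 TPM in siHnf4a, against 103 ± 43.4 TPM in siCon (SD, n = 3 mice). Cebpa stood at 54.6 ± 7.71 TPM in the double knockdown and 15.8 ± 1.96 TPM in siCebpa, against 114 ± 11.8 TPM in siCon, so more Cebpa transcript was left in the double knockdown than in siCebpa alone. The 10 hepatocyte markers together reached 4859 to 7873 TPM (double knockdown), 6516 to 11118 TPM (siHnf4a), 6727 to 12719 TPM (siCebpa) and 7283 to 10155 TPM (siCon). Against siCon in edgeR, 1 of them was higher and 2 lower in the double knockdown, 2 and 1 in siHnf4a, and 0 and 0 in siCebpa. Apob was at -2.38 and -2.09 on the log2 scale in the groups with siHnf4a, and Ass1 at 0.82 and 0.84. With the mouse as a block, 2 were higher and 5 lower, 4 and 2, and 1 and 3, in the same order. The shares of all genes called are given below. Of 4 tested cholangiocyte markers, 2 were lower in both groups with siHnf4a: Krt19 by -2.94 and Sox9 by -1.58 on the log2 scale in the double knockdown, and by -2.69 and -1.01 in siHnf4a, all against siCon in edgeR. None was called in siCebpa, where the median of the 4 was -0.91. With the mouse as a block, all 4 were lower in both groups with siHnf4a, and 3 (Krt19, Sox9 and Spp1) were lower in siCebpa too. The 10 markers of stellate cells and fibroblasts summed to 43 to 69 TPM (double knockdown), 47.4 to 64.6 TPM (siHnf4a) and 42.9 to 71.3 TPM (siCebpa), below the 73.7 to 81.7 TPM of siCon in each case, and 1 of them, Acta2, was lower in siHnf4a (-0.90). With the block, 2 of these markers were lower in the double knockdown, 3 in siHnf4a and 0 in siCebpa. Their part in the results was not tested. Erythroid markers summed to at most 0.553 TPM and markers of T, B and NK cells to at most 2.1 TPM in any library. In bulk RNA, fewer cells of a type and less RNA per cell cannot be told apart.

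The iron genes divided by which siRNA moved them. Trf, Ftl1 and Tfr2 fell wherever Hnf4a was targeted, Fth1 rose in all 3 knockdown groups, and Ftl1 rose under siCebpa alone. In edgeR without a mouse block, Hamp and Slc40a1 passed only between knockdowns, Slc40a1 only in the double knockdown against siCebpa. DESeq2, and edgeR with the block, also called Slc40a1 in siHnf4a against siCebpa. Missing the threshold against siCon does not show that Hamp and Slc40a1 were unchanged. The siCebpa libraries of Hamp lay below all siCon libraries in TPM (-1.27 ± 0.48 on the log2 scale, unadjusted p = 0.0215, edgeR). In the double knockdown against siCon, 1 of the 9 tested genes was higher (Fth1) and 4 were lower (Trf, Ftl1, Tfr2 and Cp), where 6.9% of all 15090 tested genes were higher and 7.13% lower. In siHnf4a against siCon, 1 was higher (Fth1) and 3 were lower (Trf, Ftl1 and Tfr2), with 7.24% of all genes higher and 7.29% lower. In siCebpa against siCon, 2 were higher (Fth1 and Ftl1) and 0 were lower in edgeR, with 2.94% of all genes higher and 1.72% lower. At an unadjusted p under 0.05, 2 were lower, and DESeq2 called 1 lower (Cp). Of all 15090 genes, 3063 had an unadjusted p under 0.05 in either direction there, and DESeq2 called 540 lower. Here and below a call is an adjusted p under 0.05 in edgeR's quasi-likelihood test with Benjamini-Hochberg adjustment over all tested genes, and log2 fold changes carry their standard errors.

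Against siCebpa, Trf, Ftl1 and Tfr2 were again lower in both groups with siHnf4a and Hamp was higher, while neither Fth1 nor Cp passed. In the double knockdown against siCebpa, 1 gene was higher (Hamp) and 4 were lower (Trf, Ftl1, Tfr2 and Slc40a1), with 6.51% of all genes higher and 6.47% lower. In siHnf4a against siCebpa, 1 was higher (Hamp) and 3 were lower (Trf, Ftl1 and Tfr2), with 7.51% of all genes higher and 8.67% lower. In the double knockdown against siHnf4a, none of the 9 was called by edgeR, DESeq2 or limma and 0 reached an unadjusted p under 0.05, with 0% of all genes higher and 0.00663% lower, the single gene being Cebpa, a call lost in 6 of 15 alternatives, among them leaving out double knockdown replicate 2 or 3 or any siHnf4a replicate (adjusted p up to 0.345, edgeR). The interaction, the departure of the double knockdown from the sum of the single log2 changes, was called for 0 of the 9 by the same tools, with 0.053% of all genes higher and 0.0331% lower. Its unadjusted p was under 0.05 for 2 of them in edgeR, Fth1 (-0.61 ± 0.23) and Ftl1 (-0.45 ± 0.19), and for 1488 of all 15090 genes. In the double knockdown against siHnf4a, 373 of all genes reached it. DESeq2 called 235 of all genes for the interaction. Cebpa stood at 54.6 ± 7.71 TPM in the double knockdown against 15.8 ± 1.96 TPM in siCebpa. So the double knockdown against siHnf4a and the interaction do not measure the loss of Cebpa reached in siCebpa alone.

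Comparisons with siCebpa depend on the scale. On log2(TPM + 1) values with limma, the median of all genes in siCebpa against siCon moved to -0.12, and 96 of 14008 genes were higher and 345 lower, against 444 higher and 260 lower of 15090 in edgeR. The double knockdown against siCebpa then gave 1300 higher and 371 lower, against 983 and 976 in edgeR, and siHnf4a against siCebpa gave 1596 higher and 472 lower, against 1133 and 1309. The fold changes below are on the count scale of edgeR, and levels are in TPM.

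The mouse was also entered as a block, because each mouse gave a library to every group. This put Cp among the lower calls of each knockdown against siCon and Hfe among the higher calls of both groups with siHnf4a: 2 higher and 4 lower in the double knockdown (13.8% and 15.6% of all genes), 2 and 4 in siHnf4a (14.5% and 15.5%), and 2 and 1 in siCebpa (8.73% and 8.11%). Against siCebpa it gave 2 higher and 4 lower both in the double knockdown (13% and 14.3% of all genes) and in siHnf4a (14.9% and 16.3%). The interaction was called for 0 of the 9 with the block as well (1.99% of all genes higher and 1.83% lower). At an unadjusted p under 0.05 in that fit, 0 were higher and 2 lower, where 2959 of all 15090 genes passed in either direction. The share of all genes called was larger with the block in each comparison given here.

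**Figure D1:**
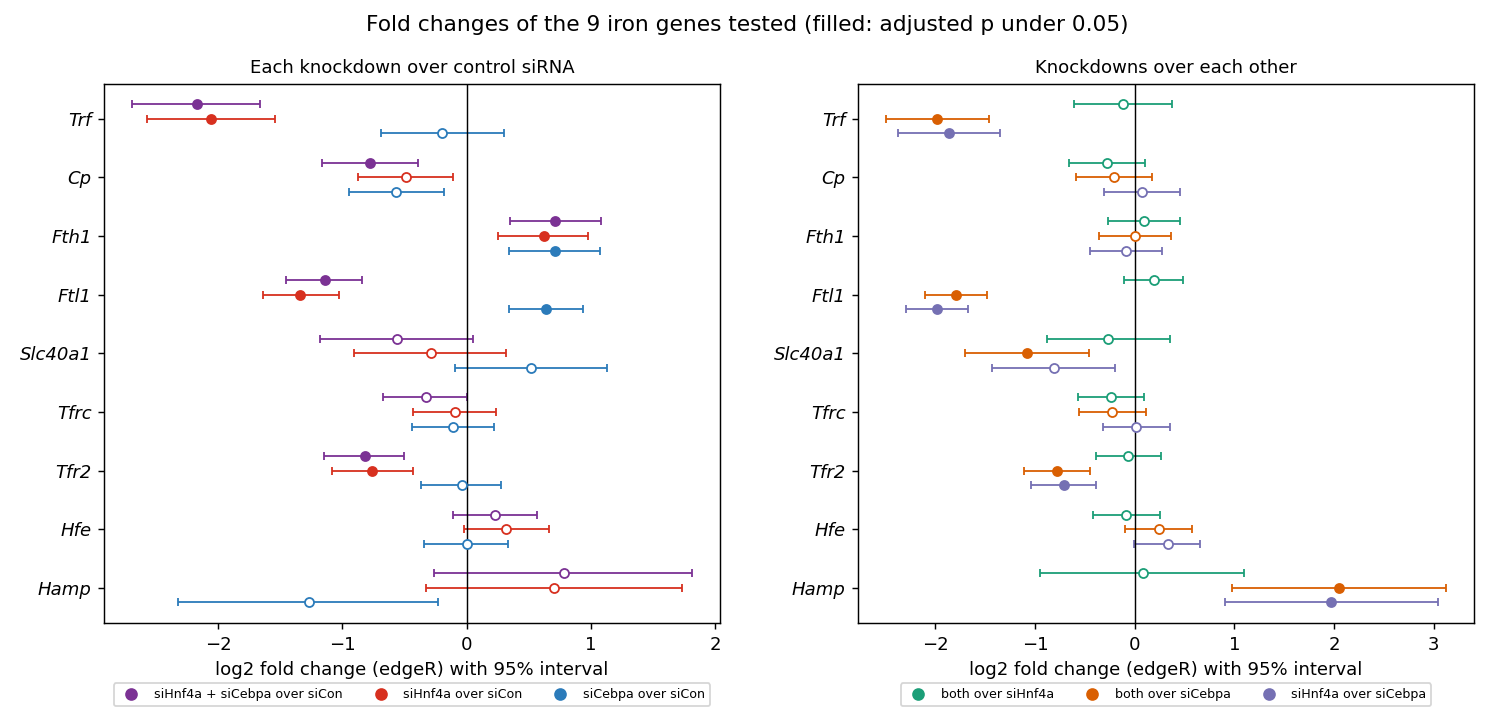
Log2 fold changes of the 9 tested iron genes with 95% intervals from edgeR, each knockdown over siCon at left and knockdowns over each other at right; filled points passed the adjusted threshold of 0.05. Trf and Ftl1 lie below 0 wherever a group with siHnf4a is set against one without it, and no green point (double knockdown over siHnf4a) is filled.

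Transferrin, the protein that carries ferric iron in plasma, showed the largest fall among the 9 genes in both knockdowns of Hnf4a against siCon. Trf (chr9:103204001-103230444) had 3713, 2790 and 4350 TPM in the double knockdown, 4303, 3614 and 4362 TPM in siHnf4a, 11814, 13405 and 15137 TPM in siCebpa, and 13346, 16847 and 20423 TPM in siCon, for mice 1, 2 and 3. All 6 libraries with siHnf4a lay below all 6 without it. The log2 fold change was -2.17 ± 0.23 in the double knockdown (adjusted p = 0.000231) and -2.06 ± 0.23 in siHnf4a (adjusted p = 0.000332) against siCon in edgeR. Trf took 0.279% to 0.435% of all TPM in the double knockdown and 0.361% to 0.436% in siHnf4a, against 1.33% to 2.04% in siCon. By TPM it ranked 17 to 42 among all genes in the double knockdown and 17 to 27 in siHnf4a, against 2 to 4 in siCon. It held rank 1 to 4 in siCebpa, where its value was lower than in siCon in 3 of 3 mice but the fold change, -0.20 ± 0.23 with a 95% interval from -0.69 to 0.30, did not pass (adjusted p = 0.685, edgeR). The double knockdown and siHnf4a did not differ beyond their spread either (-0.12 ± 0.23, 95% interval -0.61 to 0.38). The calls of Trf in groups with siHnf4a against siCon and against siCebpa held under all 15 alternatives tried, with values against siCon between -2.381 and -1.894.

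The tested genes whose log2(CPM + 1) values tracked Trf best over the 12 libraries, among 9047 genes of at least 10 CPM (counts scaled to library size) on average, were Acat3 (Pearson r = 0.986), Gm30692 (0.981) and Chd3 (0.979). Acat3 averaged 5.42 CPM in the double knockdown, 6.93 in siHnf4a, 68.8 in siCebpa and 77.8 in siCon. Among the iron genes, Tfr2 (r = 0.92) and Ftl1 (r = 0.91) were closest to Trf. These are descriptions over libraries that share mice and groups.

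Ceruloplasmin, the copper-containing plasma enzyme that oxidises iron so that transferrin can bind it, was lower in the double knockdown. Cp (chr3:19957054-20009145) had 1820, 2243 and 2876 TPM in the double knockdown, 2558, 3082 and 3027 TPM in siHnf4a, 2643, 2579 and 2408 TPM in siCebpa, and 3935, 3655 and 4261 TPM in siCon. All 9 knockdown libraries lay below all 3 siCon libraries. Cp fell by 0.78 on the log2 scale in the double knockdown (SE 0.17, adjusted p = 0.0138, edgeR). The changes in siHnf4a (-0.49 ± 0.17, adjusted p = 0.0844) and siCebpa (-0.57 ± 0.17, adjusted p = 0.0954) missed the threshold, and passed with the mouse as a block (adjusted p = 0.0313 and 0.0297, edgeR). DESeq2, without a block, called Cp lower in both as well. The call in the double knockdown was lost without double knockdown replicate 2 (adjusted p = 0.0577) or siCon replicate 3 (adjusted p = 0.0555). Hps3 overlaps Cp on the other strand and the strand setting of the counting is not given, but Hps3 averaged 353.2 counts against 100760.2 for Cp.

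**Figure D2:**
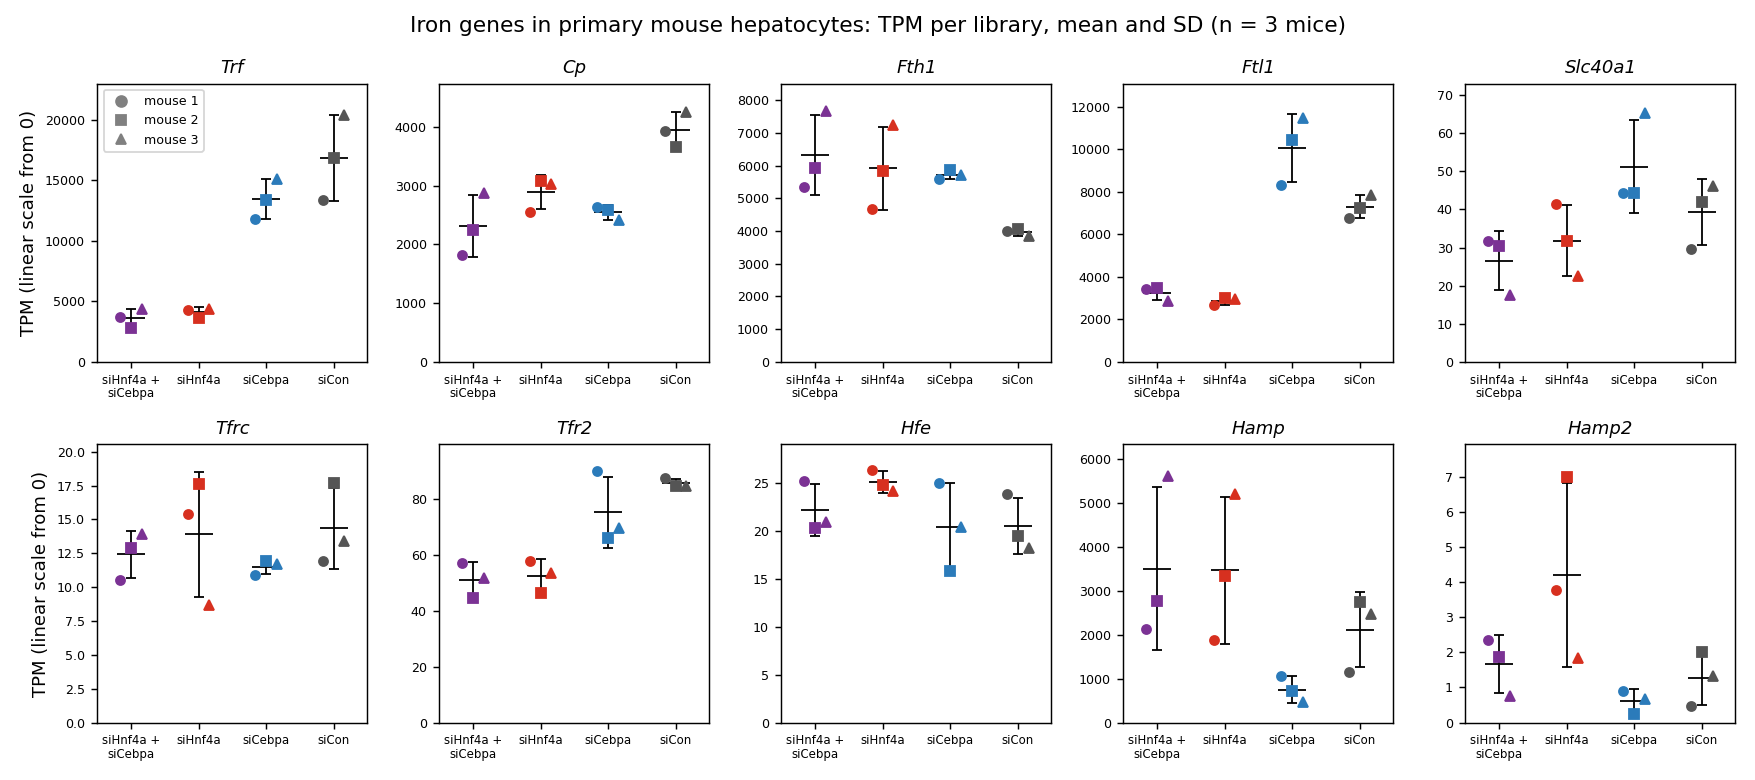
TPM of the 10 iron genes in each library (circle, square and triangle for mice 1, 2 and 3; horizontal bar and whiskers, mean and SD of 3 mice), on linear axes from 0 that differ between genes. The groups with siHnf4a are far below the others for Trf and Ftl1 and lower for Tfr2, and the siCebpa libraries stand lowest for Hamp.

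Ferritin is a shell of heavy chains, which oxidise iron, and light chains, which help it to mineralise, and the 2 chains moved apart. The heavy chain gene Fth1 (chr19:9980598-9985098) had 5351, 5925 and 7686 TPM in the double knockdown, 4690, 5833 and 7230 TPM in siHnf4a, 5590, 5876 and 5701 TPM in siCebpa, and 4011, 4050 and 3842 TPM in siCon. All 9 knockdown libraries lay above all 3 siCon libraries. Fth1 rose by 0.71 ± 0.17 on the log2 scale in the double knockdown (adjusted p = 0.0162), by 0.62 ± 0.17 in siHnf4a (adjusted p = 0.0302) and by 0.71 ± 0.17 in siCebpa (adjusted p = 0.0389) in edgeR. These calls were the less stable ones: of 15 alternatives each, 4 lost the call in the double knockdown, 8 in siHnf4a and 10 in siCebpa. The adjusted p reached 0.0662 in the double knockdown when 1 library was left out (double knockdown replicate 3, siCon replicate 2 or siCon replicate 3), 0.105 in siHnf4a (siHnf4a replicate 2 or 3, siCon replicate 2 or 3) and 0.16 in siCebpa (any of the 6 libraries). Every alternative kept the sign, and with the mouse as a block the adjusted p was 0.00246, 0.0055 and 0.00487 in the same order.

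The light chain gene Ftl1 (chr7:45457944-45459884) had 3432, 3472 and 2861 TPM in the double knockdown, 2662, 2986 and 2982 TPM in siHnf4a, 8328, 10423 and 11477 TPM in siCebpa, and 6765, 7268 and 7848 TPM in siCon. The groups with siHnf4a lay below siCon and siCebpa lay above it, with no overlap in either case. Ftl1 fell by 1.14 on the log2 scale in the double knockdown (SE 0.14, adjusted p = 0.00045) and by 1.34 in siHnf4a (SE 0.14, adjusted p = 0.000193), and rose by 0.64 ± 0.14 in siCebpa (adjusted p = 0.0284, edgeR). The falls held under all 15 alternatives. The rise in siCebpa was lost in 9 of 15, among them all 3 fits on TPM values and leaving out siCebpa replicate 2 or 3 or any siCon replicate (adjusted p up to 0.121). The double knockdown and siHnf4a differed by 0.19 ± 0.14 in Ftl1, with a 95% interval from -0.11 to 0.49. Ferritin pseudogenes took few counts: the most abundant, Ftl1-ps1, had 9.39 to 34.82 counts per library, against an average of 79589.8 for Ftl1.

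The ratio of light to heavy chain TPM shows the divergence within each library. It was 0.641, 0.586 and 0.372 in the double knockdown, 0.567, 0.512 and 0.412 in siHnf4a, 1.49, 1.77 and 2.01 in siCebpa, and 1.69, 1.79 and 2.04 in siCon. Light chain transcripts exceeded heavy chain transcripts in all 6 libraries without siHnf4a and in none of the 6 with it. The ratios of siCebpa and siCon overlapped, because both chains were higher in siCebpa. The sum of both chains was 8782 to 10547 TPM in the double knockdown, 7352 to 10212 TPM in siHnf4a and 13918 to 17178 TPM in siCebpa, against 10776 to 11691 TPM in siCon. The siHnf4a groups thus lay below siCon in summed ferritin TPM and siCebpa above it, without overlap.

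**Figure D3:**
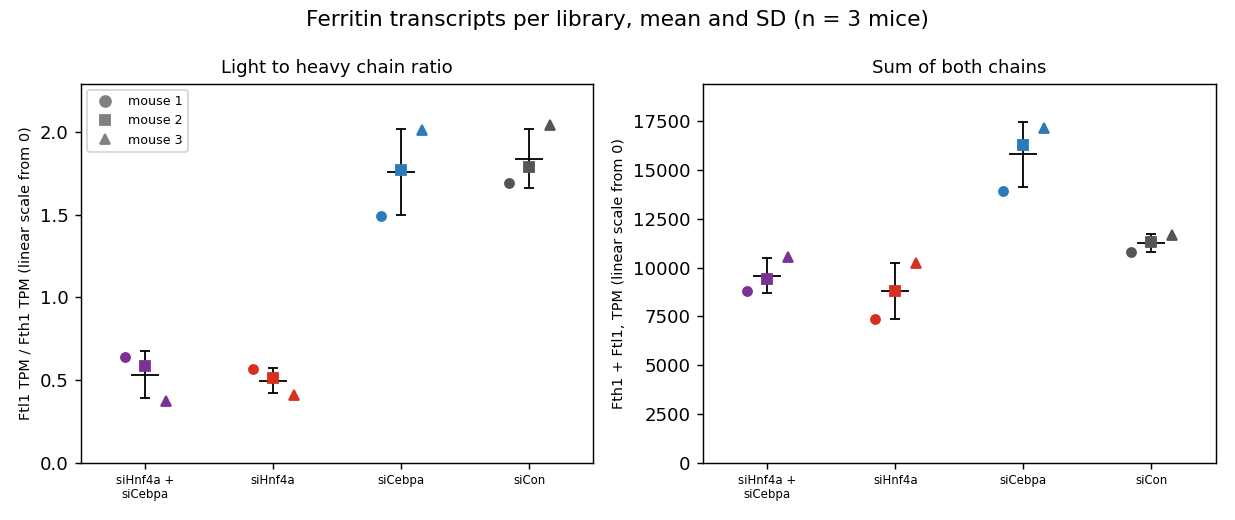
Left, the TPM of Ftl1 divided by that of Fth1 in each library; right, the sum of both in TPM; symbols are the 3 mice, bars and whiskers mean and SD, and both axes are linear from 0. The ratio is between 0.372 and 0.641 in the 6 libraries with siHnf4a, against 1.49 to 2.04 in the 6 without it.

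Ferroportin, the only known cellular iron exporter and the protein that hepcidin removes, differed between the knockdowns of Hnf4a and Cebpa. Slc40a1 (chr1:45908068-45926523) had 31.6, 30.5 and 17.6 TPM in the double knockdown, 41.3, 31.6 and 22.5 TPM in siHnf4a, 44.2, 44.3 and 65.2 TPM in siCebpa, and 29.5, 42 and 46.2 TPM in siCon. Each knockdown overlapped siCon, and neither group with siHnf4a overlapped siCebpa. In the double knockdown Slc40a1 was lower than in siCebpa by -1.08 ± 0.28 on the log2 scale (adjusted p = 0.0296, edgeR). In siHnf4a the difference from siCebpa was -0.81 ± 0.28 (adjusted p = 0.0713), and with the mouse as a block it passed (adjusted p = 0.0451, edgeR). DESeq2, without a block, called that difference too. Against siCon the values were -0.56 ± 0.28 in the double knockdown, -0.29 ± 0.28 in siHnf4a and 0.52 ± 0.28 in siCebpa, none past the threshold. The call against siCebpa was lost without double knockdown replicate 2 or 3 or siCebpa replicate 2 or 3 (adjusted p up to 0.107) and in the fits on TPM values. Over the 12 libraries Tm4sf4 (r = 0.939), Usp38 (0.939) and Erc2 (0.918) tracked Slc40a1 best.

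Macrophages also express ferroportin, so their markers stand beside it. The 13 Kupffer cell and macrophage markers summed to 130 to 490 TPM (double knockdown), 132 to 561 TPM (siHnf4a), 72.8 to 450 TPM (siCebpa) and 117 to 355 TPM (siCon), most of it Cd68. Of the 11 tested, 10 had log2 fold changes below 0 against siCon in each knockdown, with medians of -1.23, -0.99 and -1.20, and none passed in edgeR. With the mouse as a block, 5 were lower in the double knockdown (Clec4f, Marco, Vsig4, Lyz2 and C1qc), 3 in siHnf4a (Clec4f, Lyz2 and C1qc) and 3 in siCebpa (Marco, Lyz2 and C1qc). Against siCebpa, where Slc40a1 passed, none of the 11 was called in the double knockdown with or without the block, and only Cd68 in siHnf4a, higher and with the block alone. The other 12 markers summed to 4.32 to 9.6 TPM, 3.8 to 12.7 TPM, 4.44 to 11.3 TPM and 8.57 to 28.1 TPM in the same order of groups. Clec4f, a marker of Kupffer cells, was at most 1.61 TPM in any library. Endothelial markers summed to 56.3 to 70.9 TPM, 66.9 to 78.2 TPM, 48.4 to 63.6 TPM and 63.1 to 78.8 TPM, again in that order. Against siCebpa, 2 of the 10 endothelial markers, Stab1 and Oit3, were higher in both groups with siHnf4a (edgeR). The part of these cells in the values of Slc40a1 was not tested.

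Transferrin receptor 1, which takes up iron-loaded transferrin in most cells, was low and did not pass in any comparison. Tfrc (chr16:32608920-32632794) had 10.5, 12.9 and 13.9 TPM in the double knockdown, 15.4, 17.6 and 8.72 TPM in siHnf4a, 10.9, 11.9 and 11.7 TPM in siCebpa, and 11.9, 17.7 and 13.4 TPM in siCon. The values overlapped between siCon and both groups with siHnf4a, and those of siCebpa lay at or just below the lowest siCon value. Against siCon the log2 fold changes were -0.33 ± 0.15 (95% interval -0.67 to 0.00) in the double knockdown, -0.09 ± 0.15 (-0.43 to 0.24) in siHnf4a and -0.11 ± 0.15 (-0.44 to 0.22) in siCebpa. Dclre1a (r = 0.847), Nedd4l (0.806) and Sh3bgrl (0.789) tracked Tfrc best over the 12 libraries, less closely than the genes most like Trf did.

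Transferrin receptor 2, a hepatocyte receptor that reports bound transferrin to the hepcidin pathway, fell with Hnf4a. Tfr2 (chr5:137569840-137587481) had 57, 44.5 and 51.7 TPM in the double knockdown, 57.9, 46.3 and 53.4 TPM in siHnf4a, 89.9, 66.1 and 69.6 TPM in siCebpa, and 87.6, 84.6 and 84.5 TPM in siCon. All 6 libraries with siHnf4a lay below all 6 without it. The log2 fold change was -0.82 ± 0.15 in the double knockdown (adjusted p = 0.00449) and -0.76 ± 0.15 in siHnf4a (adjusted p = 0.0074) against siCon, and -0.04 ± 0.15 in siCebpa with a 95% interval from -0.37 to 0.28 (edgeR). Both calls against siCon held under all 15 alternatives. Against siCebpa Tfr2 was lower by -0.78 ± 0.15 in the double knockdown (adjusted p = 0.00695) and by -0.71 ± 0.15 in siHnf4a (adjusted p = 0.00904), edgeR. Both were lost in limma on log2(TPM + 1) without a filter (adjusted p = 0.0565 and 0.067), and the second also without siHnf4a replicate 2 (adjusted p = 0.0605, edgeR).

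HFE, a membrane protein that binds transferrin receptor 1 and acts with transferrin receptor 2 in iron sensing, passed only with the mouse as a block. Hfe (chr13:23702034-23710854) had 25.3, 20.3 and 21 TPM in the double knockdown, 26.4, 24.8 and 24.2 TPM in siHnf4a, 25, 15.8 and 20.5 TPM in siCebpa, and 23.9, 19.5 and 18.3 TPM in siCon. The siHnf4a libraries lay just above all siCon libraries, and the other knockdowns overlapped siCon. The log2 fold change against siCon was 0.23 ± 0.15 in the double knockdown (adjusted p = 0.357), 0.32 ± 0.15 in siHnf4a (adjusted p = 0.198) and -0.00 ± 0.15 in siCebpa (95% interval -0.34 to 0.33, edgeR). With the mouse as a block, Hfe passed in the double knockdown (0.23 ± 0.07, adjusted p = 0.0248) and in siHnf4a (0.32 ± 0.07, adjusted p = 0.00506) against siCon, and against siCebpa with adjusted p = 0.022 and 0.00422 (edgeR). Within each mouse, Hfe was higher in siHnf4a than in siCon in 3 of 3 mice.

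Hepcidin, the hormone itself, was higher in both groups with siHnf4a than under siCebpa. Hamp had 2117, 2775 and 5597 TPM in the double knockdown, 1868, 3331 and 5196 TPM in siHnf4a, 1069, 715 and 475 TPM in siCebpa, and 1140, 2738 and 2467 TPM in siCon. The siCebpa libraries lay below all the others, and the groups with siHnf4a overlapped siCon. Hamp was higher than in siCebpa by 2.05 ± 0.49 on the log2 scale in the double knockdown (adjusted p = 0.0198) and by 1.97 ± 0.48 in siHnf4a (adjusted p = 0.0195, edgeR). Against siCon no knockdown passed, with 0.78 ± 0.47 in the double knockdown (95% interval -0.26 to 1.81), 0.70 ± 0.47 in siHnf4a (-0.33 to 1.73) and -1.27 ± 0.48 in siCebpa (-2.32 to -0.23, adjusted p = 0.157). The interaction of Hamp, 1.35 ± 0.66, did not pass (adjusted p = 0.545, edgeR). In siCebpa against siCon, Hamp was lower in 3 of 3 mice by TPM and in 2 of 3 by counts scaled to library size, mouse 1 being the exception.

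Hamp had the widest standard error of the 9 tested genes. The mouse 3 libraries had 5597 TPM in the double knockdown and 5196 TPM in siHnf4a, the highest Hamp values of the series, and 475 TPM in siCebpa, the lowest. Without double knockdown replicate 3 the difference from siCebpa was 1.527 (adjusted p = 0.0733), and it was also lost without siCebpa replicate 2 (adjusted p = 0.0695) or 3 (adjusted p = 0.0799). The call of siHnf4a against siCebpa was lost without siHnf4a replicate 2 or 3 or siCebpa replicate 2 or 3 (adjusted p up to 0.0773, edgeR), and every alternative kept the sign of both. Over the 12 libraries Fam126a (r = 0.967), Zfp512b (0.965) and Fbp2 (0.959) tracked Hamp best, and Slc40a1 (r = -0.83) and Ftl1 (r = -0.81) ran opposite to it.

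Hamp2, the second copy, was near the floor. It had 2.35, 1.88 and 0.765 TPM in the double knockdown, 3.78, 6.99 and 1.83 TPM in siHnf4a, 0.914, 0.24 and 0.683 TPM in siCebpa, and 0.486, 2.01 and 1.32 TPM in siCon. The siHnf4a libraries lay above all siCebpa libraries and overlapped the other groups. Hamp2 did not pass the filter of the main fit. Without a filter on low counts, siHnf4a was above siCebpa by 2.51 ± 0.67 (adjusted p = 0.031, edgeR), and no other comparison passed in that fit. This call rests on 16, 27 and 7.01 counts in siHnf4a against 4.01, 1 and 3 in siCebpa. In the Hamp2 transcript most like Hamp, 233 of 249 coding bases (93.6%) were the same, and 32.8% of its 31-base words also occur in Hamp. In the other Hamp2 transcripts, 92.5% and 68.8% of aligned coding bases were the same, and 31.4% and 13.7% of words were shared. Estimated counts of Hamp2 may therefore hold reads of Hamp.

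Genes of the pathways around these 10 were read from 7 lists that hold 112 symbols, of which 106 were found and 102 tested. Against siCon, 7 were higher and 17 lower in the double knockdown, which is 6.86% and 16.7% of the tested list genes, where 6.9% and 7.13% of all genes were higher and lower. In siHnf4a, 15 were higher and 12 lower (14.7% and 11.8%, against 7.24% and 7.29% of all genes), and in siCebpa 5 were higher and 7 lower (4.9% and 6.86%, against 2.94% and 1.72%). The lower counts include the siRNA targets, whose fall was the aim of the treatment: Hnf4a and Cebpa in the double knockdown, Hnf4a in siHnf4a and Cebpa in siCebpa. The edgeR counts per list stand against these same shares of all genes. Counts below at an unadjusted p under 0.05 or in DESeq2 stand against larger numbers. Of all 15090 genes, 4263, 4336 and 3063 had an unadjusted p under 0.05 in either direction in edgeR, in the same order of groups. DESeq2 called 1376, 1379 and 786 of them higher and 1351, 1396 and 540 lower. Of these calls, 12 of 24, 9 of 27 and 2 of 12 held under every alternative, in the same order, and none changed sign. Those that held in the double knockdown were Hnf4a, Cebpa, Creb3l3, Bmp4, Hfe2, Slc25a28, Exoc6, Blvrb, Slc48a1, Hmox1, Abcg2 and Cpox. In siHnf4a they were Hnf4a, Creb3l3, Neo1, Slc25a28, Blvrb, Slc48a1, Hmox1, Abcg2 and Cpox, and in siCebpa Cebpa and Blvrb, so the other calls against siCon named in the lists were each lost under at least 1 alternative. With the mouse as a block the counts were 16 higher and 28 lower, 22 and 27, and 10 and 16, where the shares of all genes were also larger, as given above.

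Iron drives hepcidin through the BMP and SMAD pathway, and most of its genes did not pass. Of 20 tested genes, 3 were lower and 0 higher in the double knockdown (15% lower, median log2 fold change -0.18), 3 and 0 in siHnf4a (15%, -0.19), and 2 and 0 in siCebpa (10%, -0.22) in edgeR, where the median of all genes was 0.00. At an unadjusted p under 0.05, 2, 2 and 0 were higher and 7, 9 and 5 lower, and DESeq2 called 2, 2 and 0 higher and 5, 7 and 3 lower. The mouse block gave 1 higher and 8 lower in the double knockdown, 1 and 9 in siHnf4a, and 0 and 7 in siCebpa. Hfe2, which encodes the BMP co-receptor hemojuvelin (symbol Hjv), had 0.699, 0.238 and 0.355 TPM in the double knockdown and 0.683, 0.225 and 0.544 TPM in siHnf4a, against 2.85, 3.24 and 3.45 TPM in siCon. It fell by 2.83 on the log2 scale in the double knockdown (SE 0.60, adjusted p = 0.0102) and by 2.67 in siHnf4a (SE 0.59, adjusted p = 0.0128), with no overlap, while in siCebpa it had 2.82, 0.763 and 0.797 TPM and did not pass (-0.95 ± 0.54, edgeR). Bmp4, a ligand of the family, fell in all 3 knockdowns, by 2.11 in the double knockdown, 1.95 in siHnf4a and 1.13 in siCebpa (adjusted p = 0.0349), the last lost in 8 of 15 alternatives. Neo1, which encodes neogenin, a partner of hemojuvelin, fell by 0.28 in the double knockdown and 0.38 in siHnf4a, and Fkbp1a, whose product FKBP12 holds BMP receptors inactive, fell by 0.34 in siCebpa.

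Other parts of that pathway gave no call against siCon in the main edgeR fit, which has no mouse block. DESeq2, also without a block, called more genes of the list, as counted above. Tmprss6, the hepatocyte protease that cleaves hemojuvelin, had log2 fold changes of -0.17 ± 0.27 in the double knockdown, 0.11 ± 0.27 in siHnf4a and -0.07 ± 0.27 in siCebpa. Bmp6, the main iron-regulated BMP and a product chiefly of liver endothelium, had 8.03, 6.17 and 1.92 TPM in the double knockdown, 5.6, 5.84 and 3.99 TPM in siHnf4a and 5.55, 2.51 and 1.02 TPM in siCebpa, against 2.5, 1.44 and 0.717 TPM in siCon. Its values (1.80 ± 0.68, 1.74 ± 0.68 and 1.09 ± 0.68) missed the threshold, and the first 2 passed with the mouse as a block (adjusted p = 0.0023 and 0.00144, edgeR). Of the transcripts that BMP signalling induces, Id1 (0.03 ± 0.42, -0.15 ± 0.42 and -0.87 ± 0.42), Smad7 (-0.68 ± 0.33, -0.92 ± 0.33 and -0.23 ± 0.33) and Atoh8 (1.55 ± 0.56, 1.50 ± 0.56 and -0.59 ± 0.57) gave no call in the main edgeR fit and did not run in 1 direction. Under the mouse block, Smad7 was lower in the double knockdown (adjusted p = 0.00331) and in siHnf4a (adjusted p = 0.000587) and Id1 in siCebpa (adjusted p = 0.0159, edgeR), while Atoh8 still gave no call. Atoh8 was higher than in siCebpa in the double knockdown (2.14 ± 0.58, adjusted p = 0.0347) and in siHnf4a (2.09 ± 0.58, adjusted p = 0.0322, edgeR), as Hamp was, calls lost in 5 and 7 of 15 alternatives. The first was lost without double knockdown replicate 3, where the difference was 1.33 ± 0.50, or siCebpa replicate 2 or 3 (adjusted p up to 0.139), and the second without any siHnf4a replicate or siCebpa replicate 2 or 3 (adjusted p up to 0.113, edgeR). Mean Smad7 went the other way, at 22.1 CPM (double knockdown) and 18.6 CPM (siHnf4a) against 30.1 CPM in siCebpa. Mean Id1 was at 32 and 28.4 CPM against 17.2 CPM. Neither Smad7 nor Id1 was called against siCebpa in the main edgeR fit.

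Among 12 genes of cytokine signalling and liver factors that act on hepcidin, 4 were lower and 0 higher in the double knockdown, 4 higher and 2 lower in siHnf4a, and 3 lower and 0 higher in siCebpa in edgeR, counts that include Hnf4a and Cebpa themselves. At an unadjusted p under 0.05, 3 were higher in the double knockdown and 0 in siCebpa, and DESeq2 called 1 and 0. Creb3l3, which encodes CREBH, a membrane-bound factor that switches on hepcidin under endoplasmic reticulum stress, had 5.05, 6.3 and 3.71 TPM in the double knockdown, 8.66, 8.96 and 6.5 TPM in siHnf4a and 23.2, 20.4 and 20.7 TPM in siCebpa, against 37.6, 45.1 and 56 TPM in siCon. No group with a knockdown overlapped siCon. Creb3l3 fell by 3.12 in the double knockdown (SE 0.23, adjusted p = 2.33e-05), by 2.30 in siHnf4a (SE 0.22, adjusted p = 0.000106) and by 0.86 in siCebpa (SE 0.21, adjusted p = 0.0418, edgeR), the last lost in 6 of 15 alternatives. Stat3, through which interleukin 6 induces hepcidin, rose by 0.34 ± 0.07 in siHnf4a (adjusted p = 0.0117), and the receptor gene Il6ra by 1.15 ± 0.34 (adjusted p = 0.0456, lost in 7 of 15 alternatives) and the kinase gene Jak2 by 0.46 ± 0.11 (adjusted p = 0.0165). In the double knockdown these 3 did not pass (0.23 ± 0.07, 0.79 ± 0.34 and 0.19 ± 0.11), but with the mouse as a block Stat3 (adjusted p = 0.0281) and Il6ra (adjusted p = 0.00744) were higher there too (edgeR). Nfe2l2, which encodes the stress factor NRF2, rose by 0.50 ± 0.12 in siHnf4a and fell by 0.49 in siCebpa, a difference of 0.98 ± 0.12 (adjusted p = 0.000566, edgeR).

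**Figure D4:**
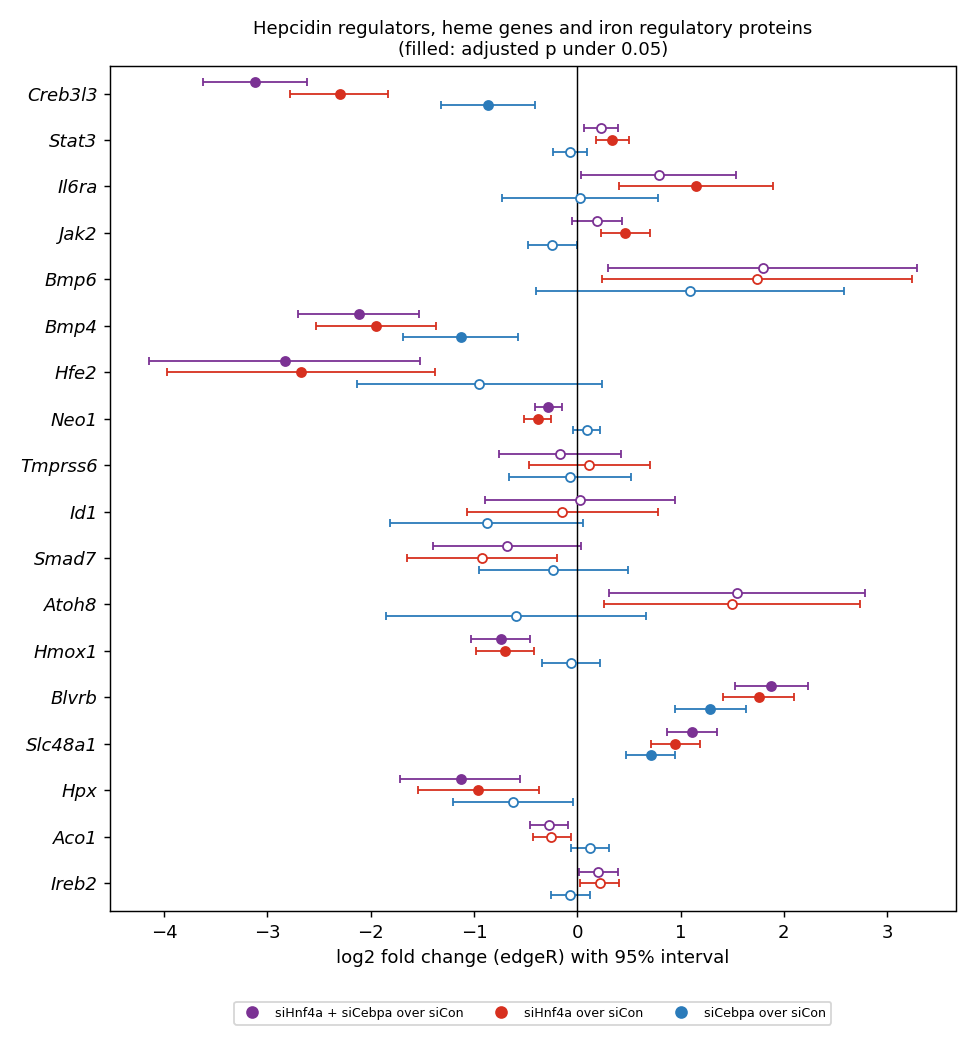
Log2 fold changes over siCon with 95% intervals from edgeR for 18 genes that act on hepcidin, heme or iron sensing; filled points passed the adjusted threshold of 0.05. Creb3l3, Bmp4 and Hfe2 stand farthest below 0 and Blvrb above it, while Tmprss6, Bmp6, Id1, Smad7 and Atoh8 have no filled point.

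The iron regulatory proteins that read the stem-loops shown above did not pass against siCon. Aco1, which encodes the first of them, had log2 fold changes of -0.27 ± 0.08 in the double knockdown (adjusted p = 0.052), -0.25 ± 0.08 in siHnf4a (adjusted p = 0.0754) and 0.12 ± 0.08 in siCebpa, and the first 2 passed with the mouse as a block (adjusted p = 0.01 and 0.016, edgeR). Ireb2, which encodes the second, had 0.20 ± 0.08, 0.22 ± 0.08 and -0.07 ± 0.08. Of the 8 tested genes of that list, 1 was lower in the double knockdown (Epas1, which encodes HIF2A, -0.78 ± 0.21), 1 higher in siHnf4a (Skp1a, 0.29 ± 0.09) and 1 higher in siCebpa (Ciao1, 0.36 ± 0.09). These calls were lost in 5, 6 and 13 of 15 alternatives, in that order. The call of Ciao1 was lost without any 1 of the 6 libraries (adjusted p up to 0.178, edgeR).

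Iron uptake and handling genes passed in both groups with siHnf4a. Of 18 tested, 1 was higher and 4 lower in the double knockdown (5.56% and 22.2%, against 6.9% and 7.13% of all genes) and 2 higher and 3 lower in siHnf4a (11.1% and 16.7%, against 7.24% and 7.29%). In siCebpa 0 were called in either direction by edgeR or DESeq2, 1 was higher and 1 lower at an unadjusted p under 0.05, and 2 were lower with the mouse as a block. Slc25a28, which encodes mitoferrin 2, a mitochondrial iron importer, rose by 0.68 ± 0.09 in the double knockdown and 0.70 ± 0.09 in siHnf4a (adjusted p = 0.000708 and 0.000598, edgeR). Steap4, a metalloreductase gene, and Slc39a8, a metal importer gene, fell by 0.73 and 0.69 in the double knockdown (and passed in siHnf4a only with the block, adjusted p = 0.0243 and 0.00892, edgeR), and Exoc6, linked to transferrin receptor recycling, by 0.56 there and by 0.37 in siHnf4a. In siHnf4a, Pcbp2, an iron chaperone gene, fell by 0.31, Steap3, which encodes an endosomal ferrireductase, by 0.36, and Heph, a ferroxidase gene related to Cp, rose by 1.95 ± 0.56 (adjusted p = 0.0406, edgeR). The call of Heph was lost in 6 of 11 alternatives, among them leaving out siHnf4a replicate 2 or 3 or any siCon replicate (1.46 to 2.39, adjusted p up to 0.145, edgeR) and limma on log2(TPM + 1) without a filter, where the value was 0.27. Lcn2, which encodes the siderophore-binding protein lipocalin 2 and was the most abundant gene of the list, had 9738, 7637 and 16228 TPM in the double knockdown, 9669, 9168 and 10740 TPM in siHnf4a and 12932, 8201 and 4535 TPM in siCebpa, against 13460, 9956 and 8885 TPM in siCon, with overlap throughout.

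Heme handling held genes that rose in all 3 knockdowns. Of 14 tested genes of heme and globin scavenging, export and breakdown, 2 were higher and 4 lower in the double knockdown, 3 and 3 in siHnf4a, and 2 and 1 in siCebpa. Blvrb, a biliverdin reductase gene, had 904, 1004 and 1096 TPM in the double knockdown, 797, 910 and 1134 TPM in siHnf4a and 607, 545 and 619 TPM in siCebpa, against 311, 222 and 296 TPM in siCon. It rose by 1.88 ± 0.16 (adjusted p = 4.13e-05), 1.76 ± 0.16 (adjusted p = 7.2e-05) and 1.29 ± 0.16 (adjusted p = 0.00227, edgeR) in the same order, with no overlap. Slc48a1, which encodes a heme transporter of endosomes and lysosomes, rose with it, by 1.11 ± 0.11, 0.95 ± 0.11 and 0.71 ± 0.11.

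In the same list, 4 genes fell in the double knockdown. Hmox1, which encodes the inducible heme oxygenase that frees iron from heme, had 170, 175 and 167 TPM in the double knockdown, 188, 175 and 164 TPM in siHnf4a and 230, 223 and 293 TPM in siCebpa, against 250, 333 and 291 TPM in siCon. It fell by 0.74 in the double knockdown (SE 0.13, adjusted p = 0.00355) and by 0.70 in siHnf4a (SE 0.13, adjusted p = 0.00521) under all 15 alternatives, and was at -0.06 ± 0.13 in siCebpa (edgeR). Macrophages express Hmox1 too, and with the mouse as a block 5 of their 11 tested markers were lower in the double knockdown and 3 in siHnf4a, but also 3 in siCebpa, as given beside Slc40a1; their part was not tested. Hpx, which encodes the plasma heme carrier hemopexin, fell by 1.13 in the double knockdown and 0.96 in siHnf4a, calls lost in 4 and 7 of 15 alternatives, the second without any 1 of the 6 libraries (adjusted p up to 0.138, edgeR). Abcg2, which encodes a heme and porphyrin exporter, fell by 0.85 and 0.84, and Ambp, which encodes the heme-binding plasma protein alpha-1-microglobulin, by 1.21 in the double knockdown (lost in 7 of 15 alternatives) and in siHnf4a only with the mouse as a block (adjusted p = 0.000316, edgeR). Hmox2, the constitutive oxygenase gene, rose by 0.31 ± 0.09 in siHnf4a and fell by 0.41 in siCebpa, calls lost in 10 and 8 of 15 alternatives.

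In the 11 genes of heme synthesis, 2 were higher and 1 lower in the double knockdown, 2 and 1 in siHnf4a, and 1 and 1 in siCebpa. Cpox, an enzyme of the later steps, fell by 0.59 in both groups with siHnf4a. Fech, the enzyme that inserts iron, rose by 0.38 ± 0.08 in siHnf4a and the porphyrin transporter gene Abcb6 by 0.49 ± 0.13 in the double knockdown. In siCebpa, Alas1, the rate-limiting enzyme in liver, fell by 0.71 (SE 0.13, adjusted p = 0.0169, edgeR), and Abcb6 rose by 0.58 ± 0.13. Of 19 tested genes of iron-sulfur cluster assembly, 2 were higher in the double knockdown (Lyrm4, 0.68 ± 0.19, and Nfu1, 0.33 ± 0.08), 3 in siHnf4a (the same 2 and Bola3, 0.35 ± 0.10) and 1 in siCebpa (Glrx5, 0.34 ± 0.07), and 0 were lower in edgeR; at an unadjusted p under 0.05, 1, 2 and 0 were lower, and DESeq2 called 0, 2 and 0.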

How the data were processed

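Per the labels' protocols, TRIzol was used for RNA of the cultured mouse hepatocytes and a BGISEQ-500 for sequencing. Trim Galore 0.6.4, kallisto 0.4.6 and build GRCm38.p6 are named in the submitters' processing notes, and no source used here gives the annotation, the strand setting or filters. The authors deposited expected counts per gene (estimated, 29.17% of values not whole) and TPM per library. Of 55385 identifiers, 55144 matched GENCODE M21, 54487 of them with their version, and 241 without a symbol held 0.00349% of counts.

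Expected counts were rounded and tested in R 4.3.3 with edgeR 4.0.16: filterByExpr (at least 0.42 CPM; 15090 genes tested, 40295 not), TMM factors of 0.947 to 1.038, a quasi-likelihood fit with 1 mean per group over 12 libraries (8 residual degrees of freedom), two-sided contrasts and Benjamini-Hochberg adjustment over all tested genes at 0.05. Alternatives were RLE scaling, DESeq2 1.42.0, no filter (at least 1 count), at least 1 CPM in 3 libraries, only the compared groups, limma 3.58.1 (limma-trend on log2 TPM plus 1 or 0.1, with at least 1 TPM in 3 libraries or no filter), each library left out, and a mouse block (leaving 6 residual degrees of freedom). By the series' design text a replicate number stands for 1 mouse, so numbers pair libraries; deviations of the 18 same-mouse pairs correlated with r of 0.125 to 0.864, and 12 of 12 libraries correlated best with one of their own mouse. The scripts were tested on simulated counts. Further steps used Python 3.11.15 and biopython 1.88.

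Members, lists and tests were chosen with earlier results of these data known. Named are the 10 members; per pathway list and comparison up to 4 called genes with the largest change, or the most abundant where none passed; the siRNA targets and the regulators Creb3l3, Stat3, Hjv, Tmprss6, Bmp6, Hmox1, Aco1 and Ireb2; and the 3 genes most like Trf, Hamp, Tfrc and Slc40a1. Id1, Smad7 and Atoh8 were added after their values were seen, as were Nfe2l2, the comparisons of Atoh8, Smad7 and Id1 with siCebpa and the single marker genes. Some genes that fall under the rule are not printed.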

Additional observations from a re-analysis of the deposited data

Results flagged for a closer look

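Cebpa was the one gene among the pathway lists whose interaction passed the threshold in edgeR without the block. The departure of the double knockdown from the sum of the single log2 changes was 1.50, because Cebpa fell by 1.03 on the log2 scale in the double knockdown and by 2.68 in siCebpa against siCon, while siHnf4a alone gave 0.15 ± 0.12. The call was lost in 6 of 20 alternatives, each of them leaving out 1 library (double knockdown replicate 1 or 2, siHnf4a replicate 1 or 2, or siCon replicate 2 or 3; 1.38 to 1.55, adjusted p up to 0.086). With the mouse as a block, 2 of the 102 list genes had a higher interaction (Cebpa and Fkbp1a) and 2 a lower one (Blvrb and Abcb6), where 1.99% of all genes were higher and 1.83% lower.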

How the results depend on the processing

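With 3 mice per group and up to 8 residual degrees of freedom, small changes pass only where mice are alike, and low genes (Hamp2, Hfe2, Bmp4, Bmp6) rest on few counts. For counts of iron genes called in each comparison, 93 alternatives stayed within 1.5 times and 17 did not. For siCebpa against siCon the 2 calls became 0 with only the compared groups and in all 3 TPM fits, and 0 to 1 leaving out 1 library. Leaving out 1 library gave 3 to 5 for the double knockdown against siCon and against siCebpa (5 in full each), and 2 to 5 for siHnf4a against siCebpa (4 in full). TPM without a filter gave 2 for the double knockdown and 2 for siHnf4a against siCebpa. The cause was not tested. With the mouse as a block, pairing libraries, the counts were 6 for the double knockdown and 6 for siHnf4a against siCon, 3 for siCebpa against siCon, 6 for each group with siHnf4a against siCebpa, and 0 for the double knockdown against siHnf4a and for the interaction.

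Of single log2 fold changes, 879 kept side and sign, 53 lost the call, 13 gained one and 45 changed sign, all 45 of values that had not passed. In the TPM fits these were Tfrc in the double knockdown against siCebpa (0.097, 0.103 and 0.097), Fth1 in siHnf4a against siCebpa (0.026 in each), and the interactions of Tfrc (0.174, 0.188 and 0.174) and Tfr2 (0.155, 0.156 and 0.155); with the block, Fth1 in the double knockdown against siCebpa (-0.012). Leaving out 1 library gave, against siCon, Tfrc in siHnf4a -0.218 to 0.1, and Hfe and Tfr2 in siCebpa -0.158 to 0.086 and -0.209 to 0.041. In the double knockdown against siHnf4a it gave Hfe -0.215 to 0.032, Fth1 -0.074 to 0.246, Tfr2 -0.166 to 0.039, Trf -0.327 to 0.059 and Hamp -0.457 to 0.463. Against siCebpa it gave Fth1 in the double knockdown -0.147 to 0.111, and Tfrc and Fth1 in siHnf4a -0.094 to 0.223 and -0.229 to 0.049. Interactions ranged for Hfe from -0.197 to 0.07, Tfrc -0.311 to 0.007, Tfr2 -0.111 to 0.142 and Trf -0.112 to 0.273.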
